A study of Mus musculus with 18 samples.

Results

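The genes described here were the Notch receptors Notch1, Notch2 and Notch4, the ligands Dll1, Dll4, Jag1 and Jag2, and the target genes Hes1, Hey1 and Nrarp, measured in mouse lung. They were found as the probes whose RefSeq accession maps to 1 of these 10 genes, which gave 12 probes of the 55681 non-control probes on the array, or 10 of the 20660 genes that could be named. Notch1 and Notch2 had 2 probes each, and the probe with the highest mean intensity stands for a gene below unless another probe is named.

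Lung RNA of 18 male MutaTMMouse animals, a transgenic strain made for mutation assays, about 12 weeks old and kept on a BALB/C-DBA/2 background, was compared. All mice were gavaged daily for 28 days with olive oil, either alone (5 vehicle mice, numbers 1 to 5) or carrying a mixture of 4 polycyclic aromatic hydrocarbons (PAHs), namely benzo(a)pyrene (BaP), benz(a)anthracene, benzo(b)fluoranthene and chrysene. The mixture was given at 12.5 (low dose, mice 6, 7, 9 and 10), 25 (medium dose, mice 11 to 15) or 50 (high dose, mice 16, 17, 18 and 20) mg BaP equivalents/kg-bw/day, and lungs were taken 72 h after the last dose. Cy5-labelled lung RNA of each mouse was hybridized to its own 2-colour array beside Universal Mouse Reference RNA in Cy3, made from 11 mouse cell lines, so each value is a log2 ratio of lung over that common reference, with no dye swap. Whole lung holds many cell types, and fewer cells of a type cannot be told apart from less RNA per cell.

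Notch receptors are cell surface proteins that are cut when they bind a Delta or Jagged ligand on a neighbouring cell. The freed intracellular part enters the nucleus, joins the DNA-binding protein RBPJ and a Mastermind coactivator, and switches on genes of the HES and HEY families of repressors and the feedback inhibitor Nrarp. In the lung, the pathway is known for its part in the choice between club and ciliated cells in the airways and in the sprouting and arterial identity of blood vessels, where Notch1, Notch4 and Dll4 act in endothelial cells.

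In a slope fitted over the vehicle and all doses, Notch1 fell and Nrarp rose. Dll4 and Hey1 were raised by less than 1.5-fold at the medium dose. Against the vehicle, Notch1 passed the test (limma adjusted p over all probes not above 0.05, with at least a 1.5-fold change) at 25 and 50 mg, and no other of the 10 genes passed it at any dose. None of the 10 genes passed it at the low dose, where 0.0898% of all probes did and 1 of the 10 genes had an unadjusted p under 0.05, as did 8.01% of all probes. At the medium dose 1 of 10 passed beside 0.726% of all probes, and at the high dose 1 of 10 beside 1.2%. At the medium dose 5 of 10 had an unadjusted p under 0.05, beside 15.3% of all probes. At the high dose 6 of 10 did, beside 15.7%. Among the brightest probes of all named genes these shares were 19.7% and 20%, and 9.26% at the low dose. By adjusted p alone, 3 of 10 were past the threshold at the medium dose (3.54% of all probes) and 2 of 10 at the high dose (4.18%). Among the brightest probes of all named genes, the way the 10 are counted, these shares were 4.82% and 5.61%. From the low to the high dose 0.16%, 0.934% and 1.51% of those probes passed the test. A slope fitted over the doses passed for 2 of 10, Notch1 and Nrarp, beside 3.9% of all probes and 5.07% of the brightest probes of all named genes. Over the exposed groups alone, without the vehicle, it passed for none of the 10. The 10 genes had a median log2 fold change of 0.12, 0.10 and 0.22 from the low to the high dose, whereas all named genes had 0.01, 0.02 and 0.02. The 10 genes were chosen with earlier results of these data known, so these counts and medians cannot show whether the 10 stand out. Between the high and the low dose none of the 10 passed, beside 0.0449% of all probes, and 1 had an unadjusted p under 0.05, beside 6.71%.

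**Figure D1:**
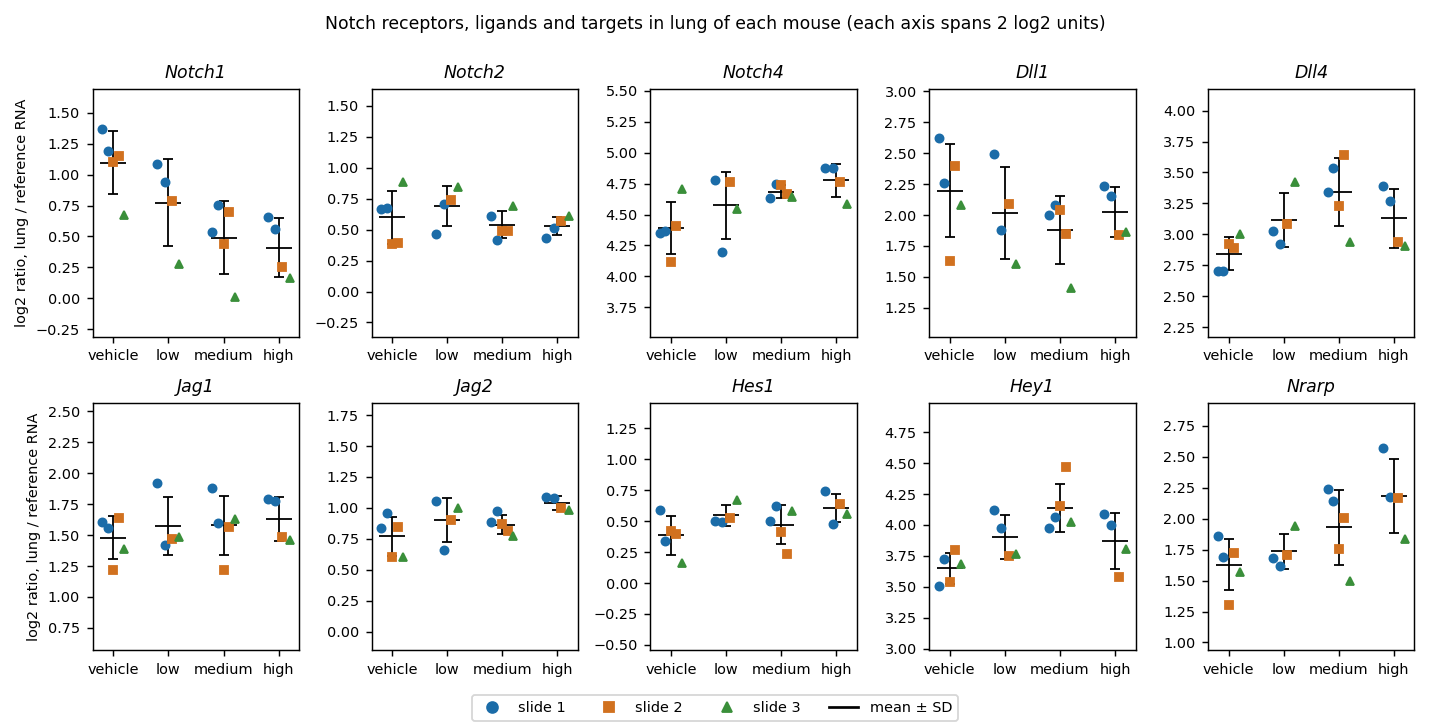
Log2 ratio of lung over reference RNA (y axis, each panel spanning 2 log2 units at its own level) of the 10 genes in each of the 18 mice, by dose group (x axis). Each point is 1 mouse, its colour and shape give the slide, and black bars give the group mean ± SD. The high-dose mice lie below all vehicle mice for Notch1 and above all of them for Jag2, and the medium-dose mice lie above all vehicle mice for Hey1.

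Of the receptors, Notch1, a receptor with roles in endothelium, epithelium and T cells, had log2 ratios of 1.37, 1.19, 1.104, 1.15 and 0.68 in vehicle mice 1 to 5. The 4 low-dose mice gave 1.08, 0.94, 0.79 and 0.28, and the 5 medium-dose mice 0.53, 0.76, 0.44, 0.70 and 0.01. The 4 high-dose mice gave 0.66, 0.56, 0.25 and 0.16. All high-dose mice were lower than all vehicle mice, 3 of 5 medium-dose mice were lower than all vehicle mice, and the low-dose and vehicle ranges overlapped. High-dose values that lie wholly above or wholly below the vehicle values were seen for 8.11% of all probes, and 4.34% lay below.

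Notch1 differed from the vehicle by a log2 fold change of -0.32 at the low dose (SE 0.17, limma adjusted p = 0.660). The medium dose gave -0.61 (SE 0.16, limma adjusted p = 0.0326). The high dose gave -0.69 (SE 0.17, limma adjusted p = 0.0195), which is 1.61-fold lower. The exact two-sided permutation test of the high-dose mice against the vehicle mice gave p = 0.0159, where the smallest p these group sizes allow is 0.00794. The slope over dose was -0.69 per 50 mg BaP equivalents (SE 0.17, limma adjusted p = 0.0187). Between the high and the low dose the difference was -0.36 (95% interval -0.73 to 0.00, limma adjusted p = 0.746).

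In each of the 4 groups the mouse on slide 3 was the lowest for Notch1, with 0.68 in the vehicle, 0.28 in the low-dose, 0.01 in the medium-dose and 0.16 in the high-dose group. Each of the 3 slides carried mice of all 4 groups. Within slides 1, 2 and 3 high-dose minus vehicle mice gave differences of -0.67, -0.88 and -0.51, and medium-dose minus vehicle mice -0.63, -0.56 and -0.66. With the slide as a block, the medium-dose value was -0.61 (limma adjusted p = 0.000189), and the high-dose value was -0.68 (limma adjusted p = 7.44e-05). Every dose group occupied 1 column of each slide throughout, so an effect of the column cannot be told apart from one of the dose.

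The second Notch1 probe (A_55_P2047168) was well above background in Cy5 on 2 of 18 arrays, against 18 of 18 for the brighter probe (A_55_P2171897), and its log2 fold change at the high dose was -0.10. On the other arrays it was not well above background. The Notch1 call at the medium dose was lost without any 1 of vehicle mice 1 to 4 or medium-dose mice 11 and 15. The call at the high dose was lost without vehicle mouse 1 (log2 fold change -0.62, limma adjusted p = 0.0559), high-dose mouse 18 (-0.64, limma adjusted p = 0.0680) or high-dose mouse 20 (-0.61, limma adjusted p = 0.0693).

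Notch2, the receptor with the brightest probe of these genes, stayed within the spread of the vehicle mice at every dose. Its log2 ratio ranged from 0.38 to 0.89 in the vehicle, 0.46 to 0.85 at the low, 0.42 to 0.69 at the medium and 0.43 to 0.61 at the high dose, and all groups overlapped. The high-dose mice differed from the vehicle mice by a log2 fold change of -0.07 (95% interval -0.28 to 0.14, limma adjusted p = 0.826). Its second probe, also well above background on all 18 arrays, gave group means between -0.08 and 0.07, again with overlapping groups.

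Notch4, a receptor found mainly in endothelial cells, was the receptor with the highest ratio of lung over reference. Its log2 ratios were 4.35, 4.36, 4.12, 4.41 and 4.71 in the vehicle mice and 4.87, 4.88, 4.77 and 4.59 in the high-dose mice. The 5 medium-dose mice lay close together, between 4.64 and 4.75. The group means corresponded to 21.0 times the reference in the vehicle and 27.4 times at the high dose. The high-dose mice were higher than all vehicle mice in 3 of 4 cases, the exception being mouse 20, which was lower than vehicle mouse 5 on the same slide. Log2 fold changes were 0.18, 0.30 and 0.39 from the low to the high dose (at the last, SE 0.11 and limma adjusted p = 0.0610), and the slope had a limma adjusted p of 0.0520, so neither passed. Within slides the high-dose difference was 0.52 and 0.50 on slides 1 and 2, and -0.12 on slide 3.

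Among the ligands, Dll4, the Delta ligand of endothelial tip cells and arteries, had log2 ratios of 2.70, 2.70, 2.92, 2.89 and 3.00 in the vehicle mice. The low-dose mice gave 3.02, 2.92, 3.09 and 3.42, and the medium-dose mice 3.34, 3.54, 3.23, 3.64 and 2.94. The high-dose mice gave 3.39, 3.27, 2.94 and 2.91. In the medium-dose group 4 of 5 mice lay above all vehicle mice, and mouse 15, on slide 3, did not. For Dll4 the low dose gave a log2 fold change of 0.27, the medium dose 0.50 (SE 0.13, limma adjusted p = 0.0300, 1.41-fold) and the high dose 0.28 (limma adjusted p = 0.302). The medium-dose change was thus past the adjusted p but under the 1.5-fold limit, and its adjusted p rose above 0.05 without vehicle mouse 1, 2 or 4 or medium-dose mouse 11, 12 or 14, up to 0.0942. Within slides 1 and 2 the medium-dose difference was 0.73 and 0.53, and on slide 3 it was -0.06.

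Dll1, a Delta ligand best known from somite and lymphocyte development, was measured with 10 spots per array. Its log2 ratio ranged from 1.63 to 2.62 in the vehicle, 1.61 to 2.49 at the low, 1.41 to 2.08 at the medium and 1.84 to 2.23 at the high dose, so all groups overlapped. Its log2 fold change was -0.32 for the medium dose (95% interval -0.68 to 0.04, limma adjusted p = 0.397) and -0.17 for the high dose (95% interval -0.55 to 0.20, limma adjusted p = 0.738). The reference channel was well above background on 2 of 18 arrays for this probe, so its distance from the reference is a bound.

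Jag1, the Jagged ligand of vessel wall and airway, gave vehicle values from 1.22 to 1.64 and high-dose values from 1.46 to 1.79. Its log2 fold change was between 0.10 and 0.15 at the 3 doses, with a limma adjusted p of 0.659 at the high dose (95% interval -0.12 to 0.41). Jag2, the other Jagged ligand, gave 0.84, 0.96, 0.60, 0.84 and 0.61 in the vehicle mice and 1.09, 1.08, 1.00 and 0.99 in the high-dose mice. All 4 high-dose mice lay above all 5 vehicle mice, which 3.78% of all probes also showed. The difference was small, with a log2 fold change of 0.27 (SE 0.09, limma adjusted p = 0.104, exact two-sided permutation p = 0.0159), and it was positive on each slide, at 0.19, 0.27 and 0.38.

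**Figure D2:**
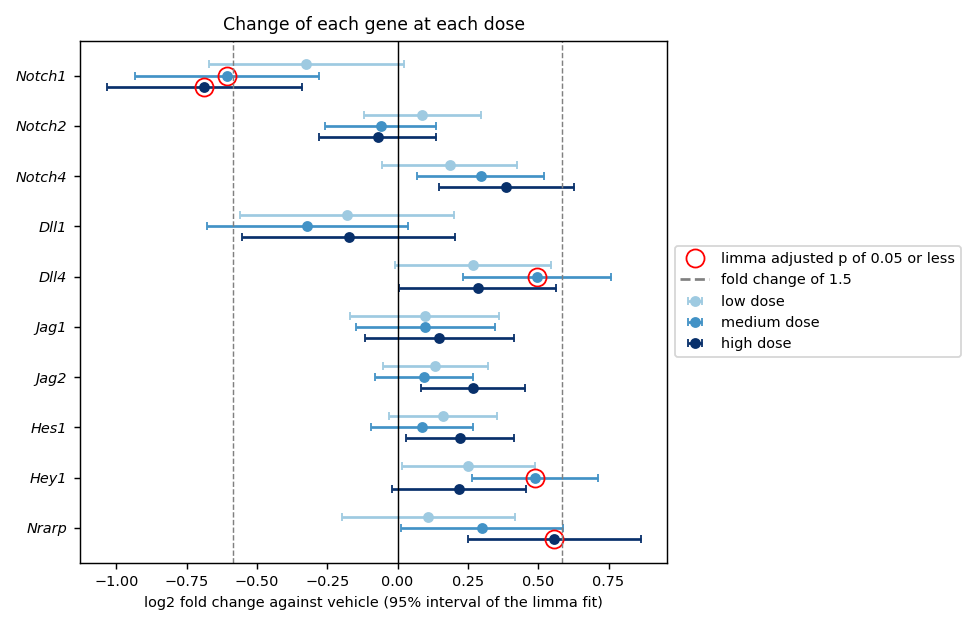
Log2 fold change against the vehicle (x axis) of each of the 10 genes (y axis) at the low, medium and high dose, from the limma fit over all 18 arrays. Bars are 95% intervals, red rings mark a limma adjusted p of 0.05 or less, and dashed lines mark a fold change of 1.5. The rings stand at Notch1 (medium -0.61, high -0.69), Dll4 (medium 0.50), Hey1 (medium 0.49) and Nrarp (high 0.56), and the Notch1 points alone lie beyond a dashed line.

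Of the targets, Nrarp, an ankyrin-repeat protein that is induced by Notch and destabilizes its intracellular part, had log2 ratios of 1.86, 1.69, 1.30, 1.72 and 1.57 in the vehicle mice. The low-dose mice gave 1.68, 1.62, 1.71 and 1.94, the medium-dose mice 2.24, 2.15, 1.75, 2.01 and 1.499, and the high-dose mice 2.57, 2.18, 2.17 and 1.84. At the high dose 3 of 4 mice lay above all vehicle mice, and mouse 20, on slide 3, lay just under the highest vehicle mouse. Its log2 fold changes were 0.11, 0.30 and 0.56 from the low to the high dose. The last had an SE of 0.15 and a limma adjusted p of 0.0334 (1.47-fold, exact two-sided permutation p = 0.0159). The slope was 0.57 per 50 mg BaP equivalents (SE 0.14, limma adjusted p = 0.0177). The high-dose difference was positive on each slide, at 0.60, 0.66 and 0.26. Its adjusted p rose above 0.05 without vehicle mouse 2, 3 or 5 or high-dose mouse 16, 17 or 18, up to 0.160 without mouse 16. The probe was well above background in Cy5 on all 18 arrays and in the reference channel on none.

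Hey1, a repressor of the HEY family that marks Notch activity in endothelium, had log2 ratios of 3.51, 3.73, 3.54, 3.80 and 3.68 in the vehicle mice. The low-dose mice gave 4.12, 3.97, 3.75 and 3.77, the medium-dose mice 3.97, 4.07, 4.15, 4.47 and 4.03, and the high-dose mice 4.09, 4.00, 3.58 and 3.81. All 5 medium-dose mice lay above all 5 vehicle mice, which 2.31% of all probes also showed, whereas the high-dose and vehicle mice overlapped. Medium-dose mouse 14 had the highest value of all 18 mice for both Hey1 and Dll4. Hey1 differed from the vehicle by 0.25 on the log2 scale at the low dose, 0.49 at the medium dose (SE 0.11, limma adjusted p = 0.0125, 1.40-fold, exact two-sided permutation p = 0.00794, the smallest possible) and 0.22 at the high dose (limma adjusted p = 0.373). The medium-dose value stayed past the adjusted p without any 1 of the 18 mice.

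Dll4 and Hey1 both had their highest group mean at the medium dose, and the medium and high dose were therefore compared directly, a comparison chosen after these values had been seen. The high dose minus the medium dose was -0.21 for Dll4 (95% interval -0.49 to 0.07) and -0.27 for Hey1 (95% interval -0.51 to -0.03, unadjusted p = 0.0274), each with a limma adjusted p of 1. No probe on the array passed the adjusted p in this comparison, 3.74% had an unadjusted p under 0.05, and a fall from the medium to the high dose was thus not shown.

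Hes1, the repressor that is the best known Notch target, had a dim probe, well above background in Cy5 on 17 of 18 arrays and in the reference channel on none. Its log2 ratio ranged from 0.16 to 0.59 in the vehicle and from 0.48 to 0.75 at the high dose, and the groups overlapped. From the low to the high dose the log2 fold changes were 0.16, 0.09 and 0.22 (for the last, 95% interval 0.03 to 0.41 and limma adjusted p = 0.226). These sizes depend on the treatment of the background, with Hes1 at 0.71, 0.59 and 1.00 by the ratios of the scanner software (limma adjusted p = 0.253 at the last) and at 0.018 for the high dose in Cy5 alone.

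Upstream sequences were looked up because the 10 genes include direct targets of RBPJ and because PAHs bind the aryl hydrocarbon receptor (AHR). The 250 bases before the start of transcription were read from the RefSeq table of assembly GRCm38.p6 and searched on both strands for GTGGGAA (an RBPJ site), TNGCGTG (the core that AHR binds) and CACGTG (an E-box). The table held 9 windows for 8 of the 10 genes and none for Hes1 and Hey1. The RBPJ letters were in none of the 9 windows and in 5.42% of all 32851 windows. The AHR core was in 1 of the 9 and in 4.1% of all windows, and the E-box in 1 of the 9 and in 6.02%. Shown here are the windows of Notch1 and Nrarp, which passed for the slope over dose, and the Dll1 window with the AHR core. Each is 5′ to 3′ on the strand of its gene with the matched letters in capitals. Notch1 held no match, Nrarp the E-box (bases 108 to 103 upstream) and Dll1 the AHR core (reverse strand, bases 68 to 62 upstream).
Notch1, chr2:26503823-26504072, minus strand: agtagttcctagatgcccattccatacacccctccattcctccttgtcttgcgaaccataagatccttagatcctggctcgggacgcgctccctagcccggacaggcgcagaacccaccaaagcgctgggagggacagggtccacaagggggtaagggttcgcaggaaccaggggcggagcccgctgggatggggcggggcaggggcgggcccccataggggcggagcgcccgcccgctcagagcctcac
Nrarp, chr2:25180508-25180757, plus strand: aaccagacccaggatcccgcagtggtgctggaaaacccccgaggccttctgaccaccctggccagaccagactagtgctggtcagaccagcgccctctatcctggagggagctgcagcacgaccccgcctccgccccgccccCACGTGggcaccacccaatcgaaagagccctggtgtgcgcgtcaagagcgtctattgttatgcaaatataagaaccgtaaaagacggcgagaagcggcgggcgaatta
Dll1, second start, chr17:15376933-15377182, minus strand: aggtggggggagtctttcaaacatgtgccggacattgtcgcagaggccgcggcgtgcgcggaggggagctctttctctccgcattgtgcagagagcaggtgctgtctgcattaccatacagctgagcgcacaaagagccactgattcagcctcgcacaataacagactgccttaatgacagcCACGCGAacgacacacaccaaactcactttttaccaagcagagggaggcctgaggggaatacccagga
The matched letters describe these windows only, and their part in the values of these genes was not tested.

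The genes whose log2 ratio followed that of Notch1 most closely over the 18 arrays, among 13435 named genes well above background on all arrays, were Erlin1 (Pearson r = 0.915), Pinx1 (r = 0.914) and Trpm1 (r = 0.911). The 18 points share slides and dose groups. Around the group means the correlations were 0.869, 0.808 and 0.862. At the high dose the log2 fold changes of the 3 genes were -0.23, -0.59 and -0.55.

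The rest of the pathway was described with a list of 53 other genes, of which 50 could be named on the array. At the high dose 1 of 50 passed the test, beside 1.51% of the brightest probes of all named genes. In limma's test at the low and medium doses 0 of 50 passed, beside 0.16% and 0.934% of those probes. An unadjusted p under 0.05 was reached by 10, 14 and 18 of the 50 from the low to the high dose, beside 9.26%, 19.7% and 20% of the brightest probes of all named genes. The gene that passed at the high dose was Dtx4, a Deltex ubiquitin ligase that regulates Notch turnover, which fell by 0.64 on the log2 scale (SE 0.13, limma adjusted p = 0.00563), a call that was lost without vehicle mouse 3 or high-dose mouse 16. By adjusted p alone 7 of 50 were past the threshold at the high dose, 2 higher and 5 lower, beside 5.61% of the brightest probes of named genes. Over the 50 genes the median log2 fold change was -0.01, -0.04 and -0.01 from the low to the high dose.

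The 6 others past the adjusted p at the high dose, all under the 1.5-fold limit, are named after their values were seen. Higher were Poglut1, which puts glucose on the receptors' EGF repeats, at 0.39 (SE 0.08, limma adjusted p = 0.00690), and Snw1, a cofactor of the nuclear complex, at 0.49 (SE 0.12, limma adjusted p = 0.0186). Lower were Furin, the protease that cuts the receptor precursor, at -0.30 (limma adjusted p = 0.0432), and Mib1, the ubiquitin ligase that lets ligands be internalized, at -0.36 (limma adjusted p = 0.0341). Also lower was Fbxw7, which marks the cut receptor for degradation, at -0.50 (SE 0.09, limma adjusted p = 0.00304), although its second probe gave -0.13 (limma adjusted p = 0.582). Helt, a HES and HEY relative, was at -0.32 with a probe that was well above background on no array. Of the second probes well above background on all arrays, those of Maml3 (-0.50, limma adjusted p = 0.0107), Pofut1 (0.31, limma adjusted p = 0.0341) and Dtx3l (-0.27, limma adjusted p = 0.0365) were also past the adjusted p at the high dose, where the brighter probes of these genes were not, at -0.22, 0.09 and 0.00. The slope over dose passed for 6 of 50, namely Poglut1 and Snw1 with a rise and Mib1, Dtx4, Fbxw7 and Helt with a fall, beside 5.07% of the brightest probes of named genes.

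By role, the 13 measured genes of ligand trafficking and receptor turnover had a median log2 fold change of -0.19 at the high dose, with 8 of 13 lower. An unadjusted p under 0.05 was found for 7 of these 13. The counts were 2 of 13 in receptor maturation and cleavage, 5 of 12 in the nuclear complex, 3 of 8 other HES and HEY genes and 1 of 4 other receptors and ligands. Among the brightest probes of all named genes 20% reached such a p at this dose. The 13 genes of receptor maturation and cleavage had a median of -0.01, and the brightest of them did not pass the test. Psenen and Aph1a, subunits of gamma-secretase, were at -0.02 and -0.10. Rfng and Mfng, Fringe enzymes that modify the receptors, were at -0.11 and -0.01. The second probes of Aph1a and Rfng, well above background on all arrays, were at 0.51 (limma adjusted p = 0.0738) and 0.12 (limma adjusted p = 0.719). The 12 genes of the nuclear complex had a median of 0.00, and RBPJ itself (Rbpj) was at 0.10 (SE 0.07, limma adjusted p = 0.595) on its brighter and -0.24 (limma adjusted p = 0.264) on its other probe. Among the other receptors and ligands, Notch3, the receptor of vascular smooth muscle, was at 0.15 (SE 0.12, limma adjusted p = 0.628), and Dlk1, a Delta-like protein, at -0.35 (SE 0.12, limma adjusted p = 0.118), with -0.38 on its second probe. The 8 other HES and HEY genes had a median of 0.07. Hes2 was at 0.44 (limma adjusted p = 0.237) and Hes6 at 0.20. Hes7 was at -0.12 and Heyl, a smooth muscle target of Notch3, at 0.21. The probes of Hes3 and Helt were well above background on no array, and that of Hey2 on 5 of 18. None of the 8 passed the test.

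**Figure D3:**
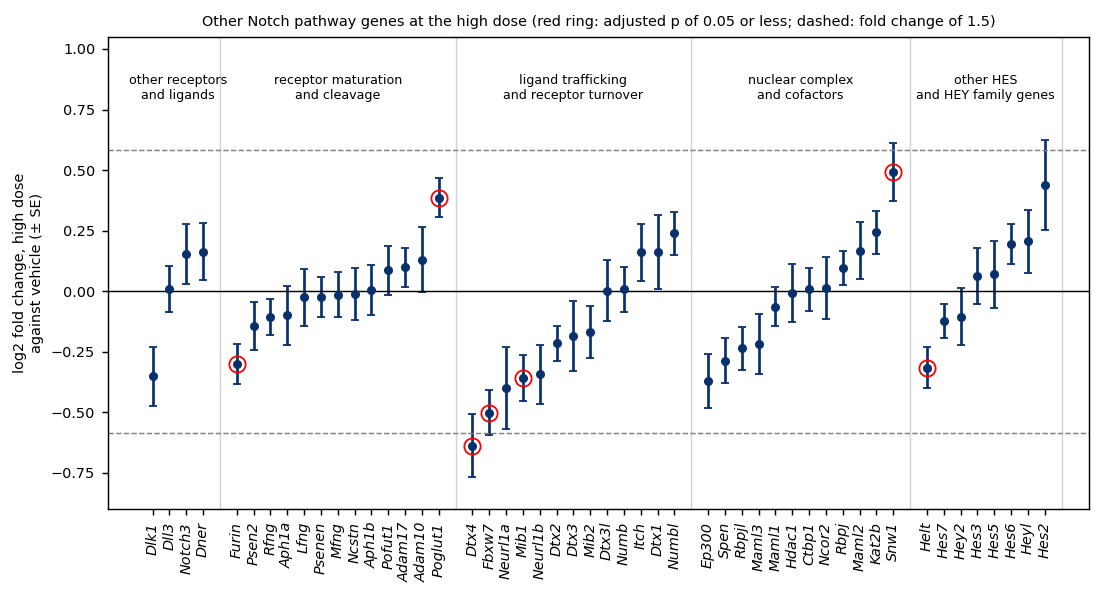
Log2 fold change at the high dose against the vehicle (y axis, bars ± SE) of the 50 other Notch pathway genes, ordered within 5 roles (x axis). Red rings mark a limma adjusted p of 0.05 or less and dashed lines a fold change of 1.5. Of the 7 ringed genes, Dtx4 (-0.64) alone lies beyond a dashed line.

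Markers of the cell types in which these genes are known were read beside them. The label lung fitted the markers, with a mean log2 ratio of the 6 alveolar type 2 genes between 4.66 and 5.30 in all mice. Of 12 endothelial markers, Pecam1 and Emcn passed the test as higher at the high dose, by 0.74 (SE 0.12, limma adjusted p = 0.000597) and 0.81 (SE 0.12, limma adjusted p = 0.000323), and also at the medium dose, by 0.69 and 0.60. The other 10 did not, and 7 of the 12 were lower at the high dose. Of the brightest probes of all named genes, 1.51% passed at that dose. Kdr (-0.38, limma adjusted p = 0.0168) and Ramp2 (-0.36, limma adjusted p = 0.0399), named after their values were seen, were past the adjusted p as lower. Both were under the 1.5-fold limit, and the second probe of Kdr gave -0.10 (limma adjusted p = 0.816). The median over the 12 was -0.12, and the mean of their log2 ratios ranged from 3.92 to 4.33 in the vehicle mice and from 4.11 to 4.29 in the high-dose mice. None of the 6 arterial markers passed on its brightest probe, with a median of -0.13 at the high dose and of -0.21 at the medium dose, at which Dll4 and Hey1 were higher. Gja4, named after its values were seen, was past the adjusted p as lower at the medium dose (-0.42, limma adjusted p = 0.0267). Its change was under the 1.5-fold limit there, and the high dose gave -0.28 (limma adjusted p = 0.199). The second probe of Sox17, an arterial transcription factor, passed as lower at the medium dose (-0.67, limma adjusted p = 0.00942), where its brighter probe was at -0.43 (limma adjusted p = 0.121).

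Of 5 alveolar type 1 markers, Cav1, a caveolin also abundant in endothelium, passed as lower at the high dose, with -0.68 (SE 0.09, limma adjusted p = 0.000102), and the mean log2 ratio of the list was 3.66 to 3.88 in the vehicle and 3.38 to 3.54 in the high-dose mice. No marker of smooth muscle and pericytes (8 measured), club cells (3) or ciliated cells (6) passed at the high dose on its brightest probe. The probes of Mcam, an adhesion protein of pericytes and endothelium, disagreed, with -0.22 (limma adjusted p = 0.424) on the brighter probe and a call as higher, at 0.60 (limma adjusted p = 0.0236), on the other. All 5 alveolar type 1 markers and all 6 alveolar type 2 markers were at values below the vehicle at the high dose, as were 7 of the 8 of smooth muscle and pericytes, Mcam on its brighter probe included. Of all named genes, 56.4% were above the vehicle at this dose.

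Markers of lymphocytes were read too. All 6 markers of cytotoxic lymphocytes had an unadjusted p under 0.05 at the high dose, each at a value below the vehicle. Of the brightest probes of all named genes, 20% reached such a p and 1.51% passed the test at this dose. The probes of Ncr1 and Klrb1c were dim, well above background on 14 and 13 arrays and not on all. The second probe of Klrb1c, well above background on no array, gave -0.08 (limma adjusted p = 0.721). That of Nkg7 gave -0.39 (limma adjusted p = 0.329). Gzma, a granzyme of killer cells, passed the test at -2.25 (SE 0.41, limma adjusted p = 0.00208). The mean log2 ratio of the 6 was 0.99 to 1.90 in the vehicle and 0.55 to 1.02 in the high-dose mice. Of 5 B cell markers, Cd79b (0.70, limma adjusted p = 0.0419) and Ms4a1 (0.70, limma adjusted p = 0.0258) passed as higher at the medium dose and none at the high dose. At the medium dose 0.934% of the brightest probes of all named genes passed. None of 6 T cell or 4 macrophage markers passed at either dose. The part of cell composition in the values of Notch1, Dll4, Hey1 and Nrarp was not tested.

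**Figure D4:**
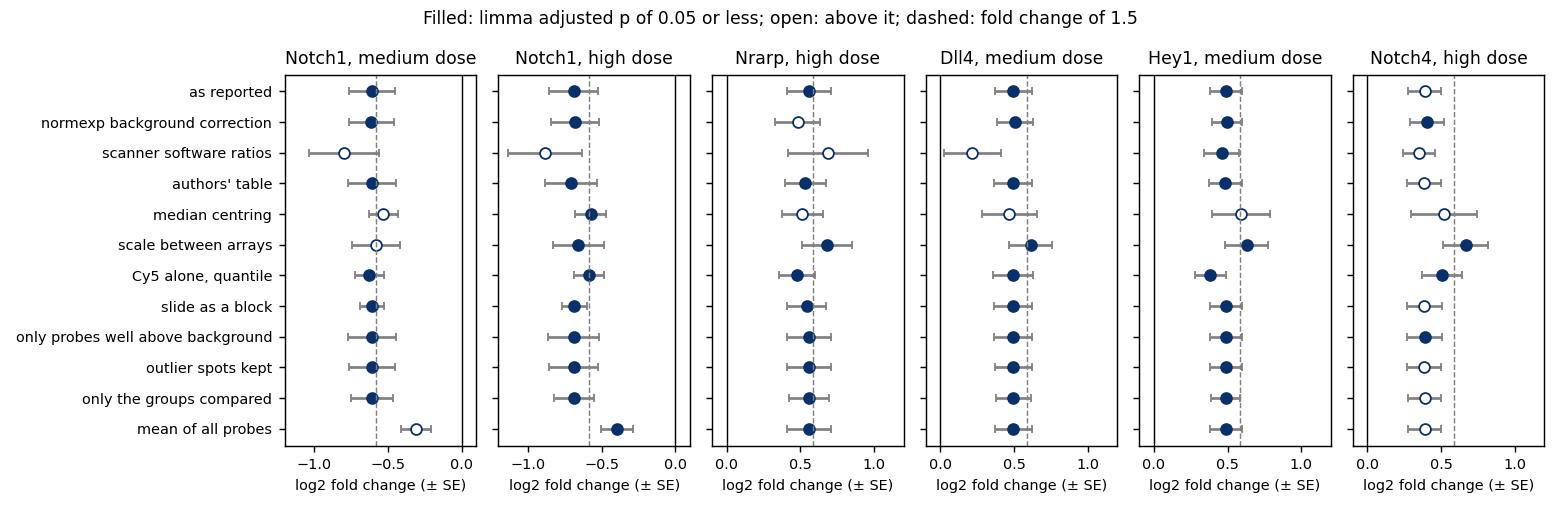
Log2 fold change (x axis, bars ± SE) of Notch1, Nrarp, Dll4, Hey1 and Notch4 at the dose named above each panel, under each way of processing the arrays (y axis). Filled points have a limma adjusted p of 0.05 or less, open points a higher one, and dashed lines mark a fold change of 1.5. All points of a panel lie on the same side of 0, and Notch1 lies closest to 0 where both of its probes are averaged (-0.31 for the medium and -0.39 for the high dose). The second of these probes is well above background on 2 of 18 arrays.

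The direction of these 5 genes at these doses was the same under each of the other ways of processing the arrays that are plotted, whereas the Notch1 calls were not. With the ratios of the scanner software, which subtracts the background first, Notch1 was at -0.88 at the high dose with more spread (limma adjusted p = 0.0647). With each array centred on its median in place of loess it was at -0.57 (limma adjusted p = 0.0231), just under the 1.5-fold limit, and with Cy5 alone at -0.58 (limma adjusted p = 0.00225), also just under it. With both of its probes averaged it was at -0.39 (limma adjusted p = 0.0430), under the limit as well. That average includes the dim second probe, well above background on 2 of 18 arrays. The medium-dose Notch1 call was lost with the scanner software (-0.80, limma adjusted p = 0.0832), median centring (-0.53, limma adjusted p = 0.0524), scale normalization (-0.58, limma adjusted p = 0.0551) and the average of both probes (-0.31, limma adjusted p = 0.110).

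The adjusted p of Nrarp at the high dose rose above 0.05 with normexp background correction (0.48, limma adjusted p = 0.0761), the scanner software (0.69, limma adjusted p = 0.198) and median centring (0.51, limma adjusted p = 0.299). That of Dll4 at the medium dose did so with the scanner software (0.22, limma adjusted p = 0.662) and median centring (0.47, limma adjusted p = 0.977), and that of Hey1 with median centring alone (0.59, limma adjusted p = 0.770). With scale normalization between arrays, Notch4 and Nrarp passed the test at the high dose (0.67 and 0.68) and Dll4 and Hey1 at the medium dose (0.61 and 0.63).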

How the data were processed

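Processed data of 18 Agilent 2-colour mouse arrays were used. The authors deposited the median signal intensity of both channels for each spot, as the Feature Extraction software (version 11.0.1.1 per the file headers) wrote them, together with that software's log10 ratio. They also deposited a table of log2 ratios, which correlated with the ratios computed here at 0.996 to 0.998 per array and had medians of -0.0316 to -0.0191.

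From the intensities, log2 ratios of Cy5 over Cy3 were formed with the background left in, which understates the changes of dim probes, and loess was applied within each array (R 4.3.3, limma 3.58.1). Outlier spots (215 to 307 per array) were left out, and repeated spots were averaged. All groups entered 1 limma fit with its empirical Bayes step. Benjamini-Hochberg adjustment ran over 55681 probes, and calls needed an adjusted p not above 0.05 and at least a 1.5-fold change. Limma stands in for the MAANOVA test of the study's methods, which was not run. A slope over dose was fitted likewise, with no fold limit. The fit was tested on simulated data.

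RefSeq accessions named 27235 probes. All 10 genes are named, and from the other lists the called genes and up to 4 of the brightest. The genes and lists were chosen with earlier results of these data known. Per array, 51.5% to 61.1% of the Cy5 signals stood well above background, and precision is limited by how many arrays there are. Results were recomputed with normexp (offset 50), the scanner software's own ratios, the authors' table, median centring, between-array scaling, Aquantile (which left the ratios as they were), Cy5 alone, the slide as a block, dim probes removed, outlier spots kept, fits of only the compared groups, no fold limit, all probes of a gene averaged, and each mouse left out.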

Additional observations from a re-analysis of the deposited data

Results flagged for a closer look

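Low-dose mouse 6 stood apart from its group for Jag1, with a log2 ratio of 1.92 where the nearest of the other 3 low-dose mice was at 1.48. The gap was 0.88 of the group's range, above Dixon's 95% critical value for 4 samples. Each of the 10 genes was checked in each of the 4 groups, 40 in all, of which this 1 was past the critical value, and chance alone marks about 1 group in 20.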

How the results depend on the processing

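No alternative moved the counts of passing genes among the 10 at the low dose (0) or between the exposed doses (0). For the medium dose the count (1) was 0 by the scanner software, by median centring or by the mean of all probes, 2 by scale normalization (Dll4 and Hey1, not Notch1) and 3 without the fold limit. For the high dose (1) it was 0 by the scanner software, median centring, Cy5 alone or the mean of all probes, 3 by scale normalization and 2 without the fold limit. The slope (2) gave 0 by the scanner software and over the exposed groups alone, and 1 by median centring, and 3, with Notch4 added, by normexp, scale normalization, Cy5 alone or without dim probes. Among the other Notch pathway genes (1 at the high dose) 0 passed by median centring and 7 without the fold limit. Leaving out 1 mouse gave 0 to 1 for the medium dose and for the high dose, 1 to 3 for the slope and 0 to 1 for the other pathway genes, where the call of Dtx4 was lost without vehicle mouse 3 or high-dose mouse 16. The slope count was 1 without vehicle mouse 1 (Notch1 lost) or high-dose mouse 16 (Nrarp lost). The cause of these shifts was not tested.

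Of the single genes, the direction turned for Dll1 at the low (0.077) and high dose (0.0021) and for Dll4 at the high dose (-0.13) by the scanner software, for Notch2 at the medium (0.080) and high dose (0.15) by median centring, and for Hes1 at the low dose (-0.039) in Cy5 alone. Leaving out 1 mouse gave Notch2 values from -0.11 to 0.012 for the medium and from -0.12 to 0.0013 for the high dose, both positive without vehicle mouse 5, and Jag1 values from -0.020, without low-dose mouse 6, to 0.15 for the low dose. None of these values passed the test. Median centring changed the split of all calls at the high dose, from 33.1% higher of 670 to 86.2% higher of 80. No mouse number occurs in more than 1 group, and the slide as a block left each count of passing genes as it was. Signal over background limits Hes1, Nrarp and the second Notch1 probe most.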
